A study of Bos taurus with 170 samples.

Results

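The genes described here were abundant in Day 2 bovine embryos and strongly reduced in Day 3 embryos. They were chosen by their measured levels: the mean over Day 2 embryos had to reach 100 CPM (UMI of the gene per 1000000 UMI on genes), and the mean over Day 3 embryos had to be at most 1/3 of it. Of the 10772 genes in the table, 2199 reached the Day 2 level and 13 of these also met the limit of the fall. They are UCHL1, CETN3, RIIAD1, INPP1, ZAR1, PALB2, LOC100848703, HACD3, RARS2, F3, PRICKLE1, PRDX3 and TMEM242. NADK2, COG2 and 8 symbol families (ribosomal, zinc finger, solute carrier, kinesin and ubiquitin genes among them) stood outside the choice by name, and 3 genes met both limits but were left out for that reason. RefSeq holds all 13 genes by symbol and lists 12 as protein coding and LOC100848703 as a long non-coding RNA.

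Embryos came from oocytes of slaughterhouse ovaries that were matured and fertilised in vitro, and neither group received a treatment. The 6 Day 2 embryos were labelled as 8-cell stage and the 8 Day 3 embryos as 16-cell stage. Blastomeres were separated after removal of the zona pellucida and sequenced one by one from the 3′ end of polyadenylated mRNA, with a unique molecular identifier (UMI) on each captured molecule. The UMI of all cells with 2000 or more UMI were summed per embryo, which is the replicate here. That kept 43 Day 2 cells and 118 Day 3 cells.

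An early embryo first lives on mRNA that the oocyte made and stored. These maternal transcripts lose their poly(A) tails and are degraded while the embryo begins to transcribe its own genome, and in cattle the major wave of that activation falls around the 8-cell to 16-cell stage. Transcripts of genes that matter in the oocyte and zygote, such as ZAR1, are typical of the maternal store. Since the libraries were primed on the poly(A) tail, a shortened tail and a degraded transcript cannot be told apart in these counts.

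Summed UMI on genes ranged from 438899 to 920192 over Day 2 embryos and from 294912 to 600185 over Day 3 embryos, so that 1 UMI corresponded to 1.09 to 3.39 CPM. No 2 embryos had identical counts, but 77 of 93 cell barcodes were used by 2 cells each. By its barcodes, Day3-E1 shared the first set with Day3-E2 and every Day 2 embryo, while Day3-E4 to Day3-E8 had the second. The labels leave the set of Day3-E3 unclear. UMI on genes per UMI on the ERCC spike-in were 64.8 to 71.7 in the Day 2 embryos with Day3-E1, Day3-E2 and Day3-E3, and 32.6 to 40.2 in Day3-E4 to Day3-E8. Summed sperm markers reached at most 5.12 CPM on Day 2 and 7.72 CPM on Day 3, with PRM1, PRM2 and TNP2 not in the table, and the summed cumulus and granulosa markers ranged from 535 to 654 CPM on Day 2 and from 211 to 591 CPM on Day 3. Most of the latter were STAR and HAS2, the cumulus list had 9 of 12 genes in the table, and FSHR, CYP19A1 and LUM were not among them. The summed oocyte and early blastomere markers, 9 of 10 in the table, ranged from 8908 to 10581 CPM on Day 2 and from 2909 to 11008 CPM on Day 3.

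Together the 13 genes took a nearly fixed share of the Day 2 transcriptome. Their sum was 3315, 3224, 3293, 3285, 3321 and 3285 CPM in Day2-E1 to Day2-E6. On Day 3 it was 1984, 1299, 1660, 421, 1344, 701, 563 and 299 CPM in Day3-E1 to Day3-E8. Day 2 embryos therefore lay within a narrow band, and Day 3 embryos were spread from 60.4% of the mean Day 2 sum in Day3-E1 to 9.08% in Day3-E8.

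The day difference itself chose the genes, so it is given as a description and was not tested. The Day 3 mean was 26.1% of the Day 2 mean for UCHL1 and 33.3% for TMEM242, with the other 11 in between and a median of 31.6%. Over the 2199 genes of that Day 2 level, the median was 76.0% and 11.96% of the genes were at 50% or less. By the limits of the choice 0.591% of the 2199 genes were taken. For 11 of the 13 genes all Day 3 embryos lay below all Day 2 embryos, which held for 9.0% of the 2199, and nothing is read from this count because the same contrast made the choice. CPM are shares of a total, and the median log2 ratio of Day 3 to Day 2 was -0.26 over 8150 genes with 20 or more UMI. With scaling factors computed by the trimmed mean of M-values (TMM) that median was -0.10, and the 13 genes ranged from 28.0% to 35.8%, so that only UCHL1, CETN3 and RIIAD1 still met the limit of 1/3. Per spike-in UMI all 13 met it as part of 93 genes, but this scale also carries the difference in gene UMI per spike-in UMI given above.

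The set has soft edges. TMEM242, PRDX3, PRICKLE1, F3 and RARS2 lay just inside the limit of the fall at 33.3% to 32.0%, and USO1, NDEL1, PATJ, TSPAN14 and DEPDC7 just outside it at 34.0% to 34.5%. PRDX3, UCHL1, HACD3, LOC100848703 and RIIAD1 lay just inside the Day 2 level at 106 to 115 CPM. Just outside it were ME1, C8H9orf64, RMDN1, SMAD1 and PGM2L1 at 90.9 to 78.4 CPM, which met the limit of the fall.

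**Figure D1:**
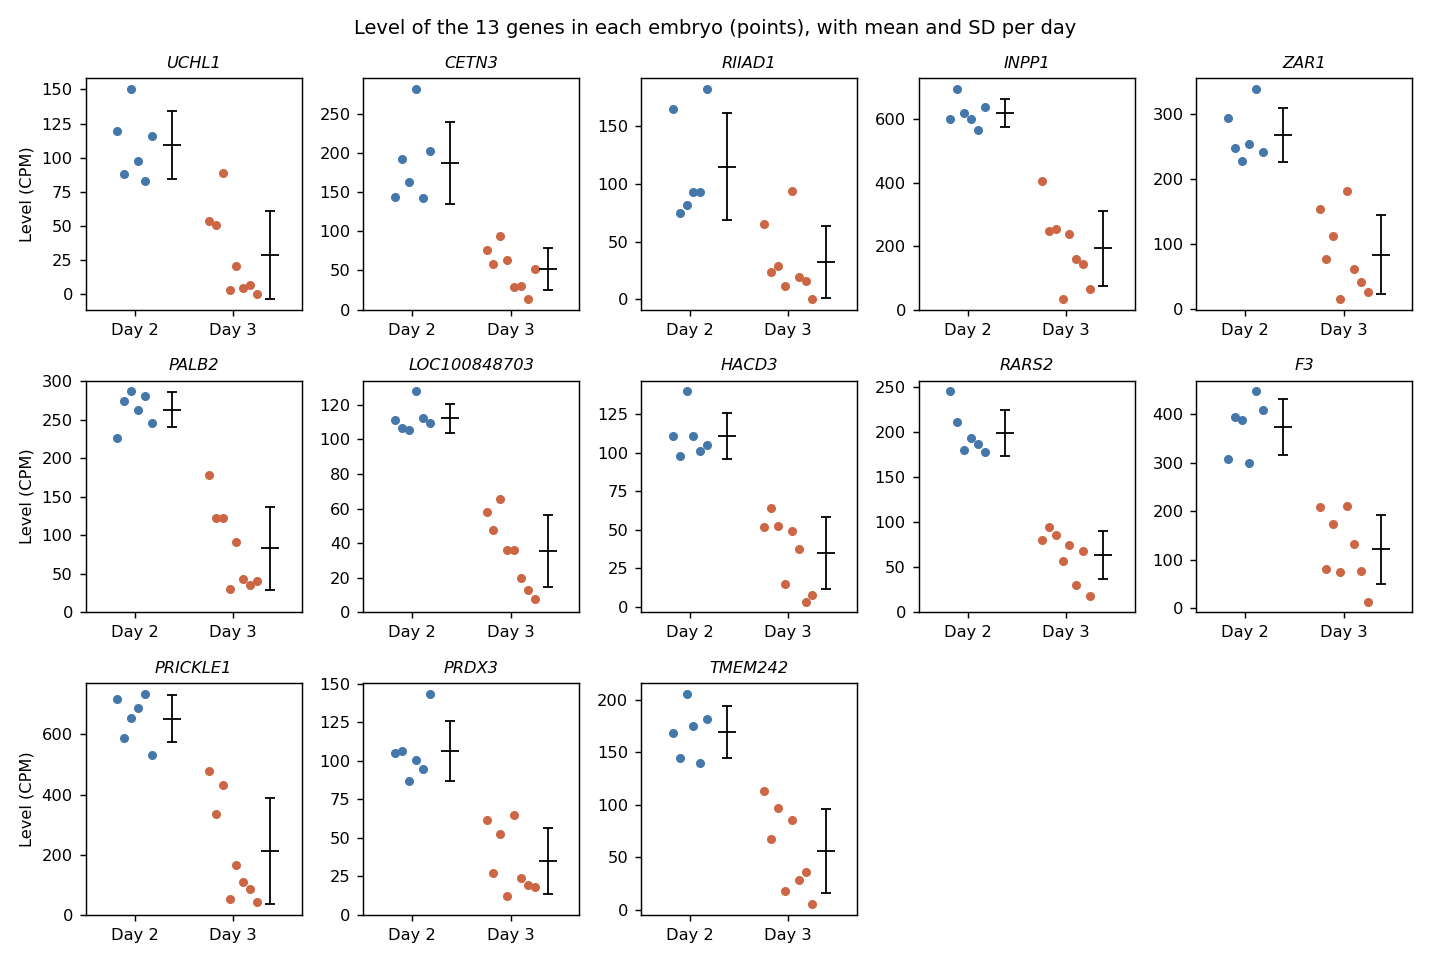
Level of each of the 13 genes (CPM, linear axis) in the 6 Day 2 embryos (blue) and the 8 Day 3 embryos (orange), in embryo order from left to right, with the mean and SD of each day as a black bar. The days overlap only for UCHL1 and RIIAD1, by 1 Day 3 embryo each, and the Day 3 points of every gene are spread widely.

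Among genes of the oocyte and zygote, ZAR1 encodes an RNA-binding protein of the oocyte that is needed for the first divisions. It ranged from 228 CPM over a median of 252 CPM to 339 CPM on Day 2, and from 14.94 to 182 CPM with a median of 69.7 CPM on Day 3, with means of 268 ± 41.5 (SD, n = 6) and 83.9 ± 60.8 CPM (SD, n = 8). Its lowest embryo was Day3-E4 and its highest Day3-E5, which still lay below every Day 2 embryo. ZAR1 was the only one of 10 subcortical maternal complex and maternal effect genes at the Day 2 level that met the limit of the fall. Its paralogue ZAR1L was at 57.8% of its Day 2 mean, NLRP5 at 45.7%, NPM2 at 49.0%, OOEP at 58.4% and DNMT1 at 59.4%. KPNA7, an importin of the oocyte, and DPPA3, which protects the maternal genome from demethylation, were at 103% and 119%. The group thus ran from ZAR1 at 31.3% to DPPA3, with a median of 58.9%.

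UCHL1 is a ubiquitin hydrolase that is abundant in neurons and germ cells. It ranged from 83.2 to 150 CPM with a median of 107 CPM on Day 2 and from 0 to 89.0 CPM with a median of 13.63 CPM on Day 3. The means were 109 ± 24.98 (SD, n = 6) and 28.5 ± 32.4 CPM (SD, n = 8), the largest relative spread on Day 3 of the 13 genes. In Day3-E3 it lay within the Day 2 range with 34 UMI, whereas Day3-E4, Day3-E6, Day3-E7 and Day3-E8 held 1, 2, 2 and 0 UMI. With 0 UMI in Day3-E8, a level of up to 7.72 CPM (3 UMI) is allowed there, and the 95% Poisson interval reached 9.50 CPM.

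PALB2 binds BRCA2 and brings it to DNA breaks for repair by homologous recombination. It ranged from 227 to 288 CPM with a median of 269 CPM on Day 2 and from 29.9 to 178 CPM with a median of 67.4 CPM on Day 3, with means of 263 ± 23.3 (SD, n = 6) and 83.1 ± 54.3 CPM (SD, n = 8). It was the lowest, relative to Day 2, of 19 recombination and repair genes at the Day 2 level, whose median was 60.6%. BRCA1 was at 81.6%, RAD50 at 60.6% and FANCD2 at 44.3%, and 16 of the 19 genes had a lower and 3 a higher mean on Day 3, where 74.4% of the 2199 genes were lower.

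CETN3, a centrin, is a calcium-binding protein of the centrosome. It ranged from 142 to 282 CPM with a median of 177 CPM on Day 2 and from 12.9 to 94.3 CPM with a median of 54.6 CPM on Day 3 (means 187 ± 52.5, SD, n = 6, and 51.9 ± 26.9 CPM, SD, n = 8). It was not lowest in the embryos with the least left overall: 62.8 CPM remained in Day3-E4 and 51.5 CPM in Day3-E8, but 12.9 CPM in Day3-E7. With 4 UMI in Day3-E7 the 95% Poisson interval of that level was 3.52 to 33.1 CPM, which does not reach the 38.9 CPM at the lower end of the interval for Day3-E4.

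RARS2, PRDX3 and TMEM242 encode proteins of the mitochondrion. RARS2 is its arginyl-tRNA synthetase, and ranged from 178 to 246 CPM with a median of 190 CPM on Day 2 and from 18.0 to 94.9 CPM with a median of 71.6 CPM on Day 3. PRDX3, a peroxiredoxin that removes hydrogen peroxide, ranged from 87.1 to 144 CPM with a median of 103 CPM and then from 11.95 to 65.0 CPM with a median of 25.6 CPM. TMEM242, a membrane protein linked to assembly of the ATP synthase, ranged from 140 to 206 CPM with a median of 172 CPM and then from 5.15 to 113 CPM with a median of 51.7 CPM. The days did not overlap for any of these genes. RARS2 was the most even of the 13 across Day 3 embryos, with a coefficient of variation of 42.5%, against 60.7% for PRDX3 and 70.9% for TMEM242.

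INPP1 and HACD3 are enzymes of metabolism and signalling. INPP1 removes the 1-phosphate from inositol polyphosphates, and ranged from 566 to 696 CPM with a median of 611 CPM on Day 2 and from 32.9 to 405 CPM with a median of 199.6 CPM on Day 3. Its Day 2 embryos varied least of all 13 genes, with a coefficient of variation of 7.127%. HACD3, a dehydratase of very long chain fatty acid elongation, ranged from 97.8 to 140 CPM with a median of 108 CPM and then from 3.23 to 64.4 CPM with a median of 43.3 CPM, the lowest value being 1 UMI in Day3-E7. Both genes lay below every Day 2 embryo in every Day 3 embryo.

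PRICKLE1 and F3 act at the cell surface or cortex. PRICKLE1, a component of planar cell polarity signalling, had the highest Day 2 level of the set, a comparison that gene length does not enter because only 3′ ends were counted. It ranged from 531 to 735 CPM with a median of 670 CPM on Day 2 and from 43.8 to 478 CPM with a median of 138 CPM on Day 3, with means of 652 ± 78.4 (SD, n = 6) and 213 ± 176 CPM (SD, n = 8). F3, the tissue factor that starts blood coagulation, ranged from 299.9 to 447 CPM with a median of 391 CPM and then from 12.9 to 211 CPM with a median of 106 CPM. F3 was 1 of 7 surface receptor, adhesion and protease genes at the Day 2 level, all of which had a lower mean on Day 3 (74.4% of the 2199 genes did), with a median of 56.4% and a highest value of 66.8%.

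RIIAD1 holds a domain like that of the regulatory subunit of protein kinase A. It ranged from 74.98 to 182 CPM with a median of 93.1 CPM on Day 2, the most variable of the 13 genes on that day, and from 0 to 93.6 CPM with a median of 21.7 CPM on Day 3. Day3-E5 lay near the Day 2 median with 36 UMI. Day3-E8 had 0 UMI, which allows up to 7.72 CPM (95% Poisson interval up to 9.50 CPM). LOC100848703, the non-coding RNA, ranged from 106 to 128 CPM with a median of 110 CPM and then from 7.72 to 65.5 CPM with a median of 36.1 CPM, with no overlap of the days.

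The remaining 10 of the 13 gene lists compared, from mRNA decay factors to Golgi transport and chromatin modifiers, held none of the 13 genes. Medians of these 10 lists ran from 54.9% of the Day 2 mean for zona pellucida and oocyte secreted factors to 100.0% for genes of meiotic arrest and cyclins. OOSP1, an oocyte secreted protein, came close to the limit at 36.3%. No list held more than 1 of the 13 genes.

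The order of loss was read from the level left of each gene in each Day 3 embryo, as a percentage of its Day 2 mean. The embryos were not sampled as a time course, so the order ranks embryos by what was left. Their hours of collection differed, however. By the paper, Day3-E1 to Day3-E4 were collected first, Day3-E5 and Day3-E6 later and Day3-E7 and Day3-E8 last. The part of collection time in this order, and in the slopes on activation given below, was not tested. Most was left in Day3-E1, with a median over the 13 genes of 56.5%, then in Day3-E3 with 47.2% and Day3-E2 with 40.0%. Day3-E5 followed with 38.5%. Much less was left in Day3-E6 with 17.2%, Day3-E7 with 14.06% and Day3-E4 with 11.26%, and least in Day3-E8 with 6.96%. The 8 embryos kept this order of medians without any 1 of the Day 2 embryos, with TMM factors and per spike-in UMI. Day3-E2 and Day3-E5 changed places when the sum of the 13 genes was used, with 39.5% and 40.9% left. On the spike-in scale, Day3-E5 had 22.7% and Day3-E8 3.97% left. The 6 Day 2 embryos had medians of 91.1% to 103%.

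**Figure D2:**
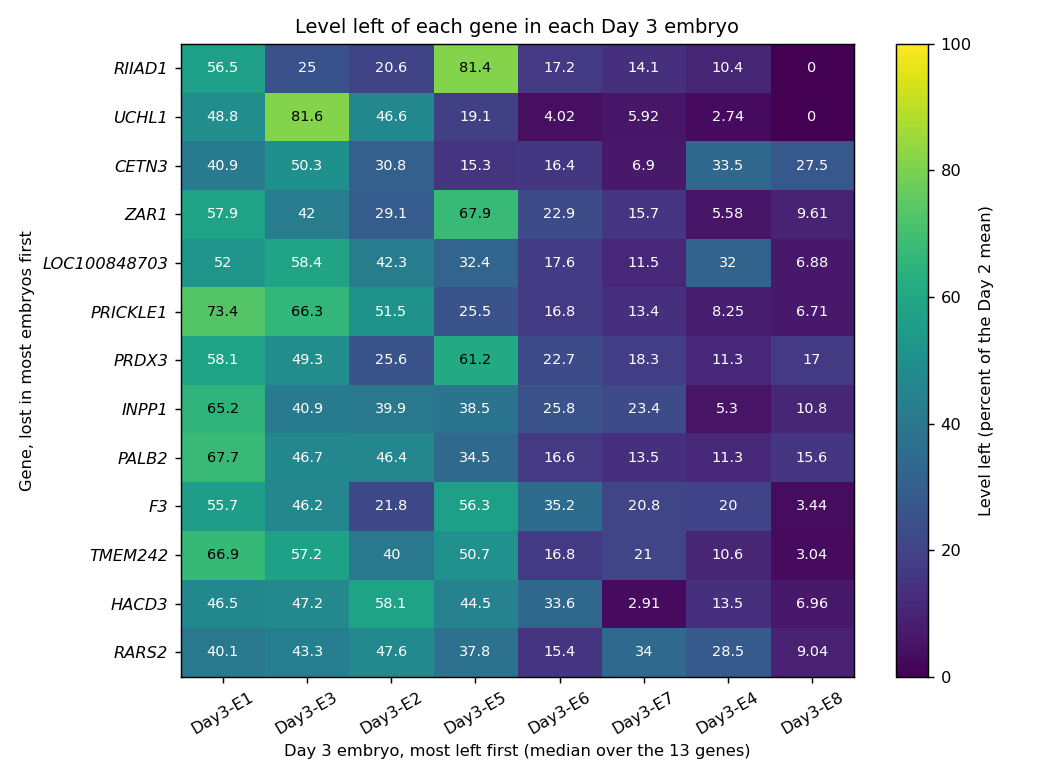
Level left (percent of the Day 2 mean, colour and number) of each of the 13 genes (rows, those at 1/3 or less in most embryos first) in each of the 8 Day 3 embryos (columns, most left first). Day3-E1 has 0 genes at 1/3 or less and Day3-E8 all 13. Of the 2199 genes of the Day 2 level, 0.05% are at 1/3 or less in Day3-E1 and 37.1% in Day3-E8. Single genes such as RIIAD1 in Day3-E5 and UCHL1 in Day3-E3 stand out from their column.

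Day3-E1 had 0 genes at 1/3 or less, Day3-E3 had 1, Day3-E5 had 4 and Day3-E2 had 5. The number was 11 for Day3-E6, 12 for both Day3-E4 and Day3-E7 and 13 for Day3-E8. Read by gene, RIIAD1 was at 1/3 or less in 6 of 8 embryos, UCHL1, CETN3, ZAR1, LOC100848703, PRICKLE1 and PRDX3 in 5, INPP1, PALB2, F3 and TMEM242 in 4, and HACD3 and RARS2 in 3. In Day3-E3 the only gene past the limit was RIIAD1, at 25.05%. In Day3-E2 they were RIIAD1 (20.6%), F3 (21.8%), PRDX3 (25.6%), ZAR1 (29.1%) and CETN3 (30.8%), and in Day3-E5 they were CETN3 (15.26%), UCHL1 (19.1%), PRICKLE1 (25.5%) and LOC100848703 (32.4%). These embryos had similar medians but mostly different genes past the limit: of the 8 genes past the limit in either, only CETN3 was past it in both. RIIAD1 was at 20.6% in Day3-E2, where 7 UMI gave a 95% Poisson interval of 8.30% to 42.5%, and at 81.4% in Day3-E5, where 36 UMI gave 57.0% to 113%. PRICKLE1 went the other way, at 51.5% (41.9% to 62.7%) in Day3-E2 and 25.5% (19.7% to 32.6%) in Day3-E5. Such intervals cover counting error only.

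Day3-E1 stood apart from the other Day 3 embryos in having a Day 2 level of activation genes, yet it had less of each of the 13 genes than any Day 2 embryo. The activation genes are 20 genes, NANOG and FOLR1 among them, that the study used to mark transcription by the embryo. Their summed level was 88.3 to 165 CPM in Day 2 embryos and 130 CPM in Day3-E1, and it was higher in all other Day 3 embryos. Day3-E5 had 296 CPM and Day3-E3 429 CPM, Day3-E6 872 CPM, Day3-E7 1002 CPM and Day3-E2 1021 CPM, and the highest were Day3-E4 with 2074 CPM and Day3-E8 with 2132 CPM. The median gene of the 2199 was at 98.2% of its Day 2 mean in Day3-E1, and 22.4% of them lay below all Day 2 embryos there. The 13 genes were at 40.1% (RARS2) to 73.4% (PRICKLE1). Day3-E1 shared the barcode set of the Day 2 embryos and had 70.5 gene UMI per spike-in UMI. Its plate held no Day 2 embryo, so plate and day cannot be told apart for it.

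Since Day3-E1 had a part in the choice of the 13 genes, the choice was repeated without it, and the genes so chosen were then read in Day3-E1. Without it 50 genes met both limits, the 13 among them. In Day3-E1, 38 of the 50 (76.0%) lay below all Day 2 embryos, against 22.4% of the 2199, and 47 lay below their Day 2 mean, with a median of 69.0% left. The same was done for Day3-E2, where 21 of 21 genes lay below all Day 2 embryos (62.1% of the 2199), for Day3-E3 with 34 of 37 (38.7%) and for Day3-E5 with 25 of 30 (41.0%). In these 4 embryos, genes chosen without the embryo were low in it more often than the genes of that Day 2 level. The same Day 2 values served for the choice and for the reading, so the 2 steps are not independent and no conclusion is drawn. For Day3-E4, Day3-E6, Day3-E7 and Day3-E8 the choice without the embryo left 5, 8, 5 and 3 genes, all of which lay below all Day 2 embryos in it. Since 69.7%, 54.0%, 61.3% and 71.4% of the 2199 genes did so there, these small counts say little.

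**Figure D3:**
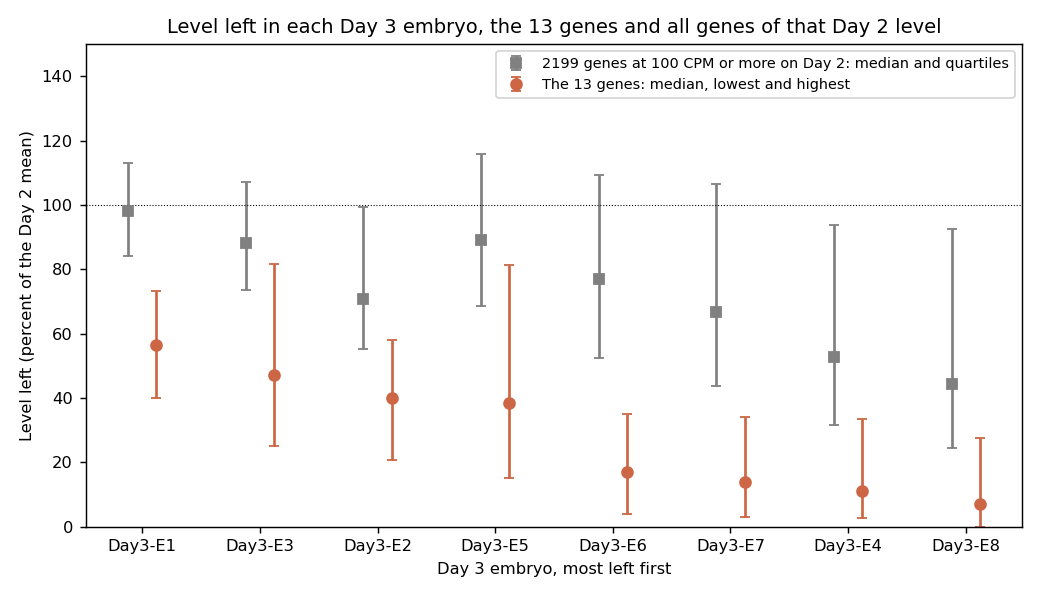
Level left (percent of the Day 2 mean) in each Day 3 embryo for the 13 genes (orange, median with lowest and highest gene) and for all 2199 genes at 100 CPM or more on Day 2 (grey, median with quartiles). The median of the 13 genes is below the lower quartile of the 2199 in every embryo, and both medians are lowest in Day3-E8 at 6.96% and 44.4%. The 13 genes are part of the 2199 and were chosen by a low mean over these embryos, so a lower median is built in.

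The other genes of the same Day 2 level went down across the embryos in a similar but not the same order. Their median was highest in Day3-E1 with 98.2%, followed by Day3-E5 with 89.1%, Day3-E3 with 88.1%, Day3-E6 with 77.1% and Day3-E2 with 70.9%. Day3-E7 had 66.6%, Day3-E4 52.8% and Day3-E8 44.4%. Set against that median, the 13 genes had 57.6% left in Day3-E1, and Day3-E2 had 56.5%, Day3-E3 53.6% and Day3-E5 43.3%. The same ratio was 22.3% for Day3-E6, 21.3% for Day3-E4, 21.1% for Day3-E7 and 15.7% for Day3-E8. All of the latter 4 embryos belong to the second barcode set, as does Day3-E5, and the part of the barcode set in this ratio was not tested. A low ratio is built in, since a low mean over these Day 3 embryos made the choice of the 13 genes.

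Within plate 2, which held Day2-E5 and Day2-E6 with Day3-E7 and Day3-E8, the median over the 13 genes was 11.67% of the Day 2 mean and all 13 were at 1/3 or less. Within plate 3, with 4 Day 2 embryos and Day3-E5 and Day3-E6, it was 31.7%, and 8 were at 1/3 or less. Within the first barcode set, which leaves Day3-E1 and Day3-E2, it was 47.2%, and 0 were at 1/3 or less although all 13 had both Day 3 embryos below the 6 Day 2 embryos. With both limits applied within plate 2 alone 470 genes met them, and within plate 3 alone 60. Of the 2199 genes of the Day 2 level, 22.4% lay below all Day 2 embryos in Day3-E1 and 62.1% in Day3-E2. The share below in both was not computed, so nothing is read from the count of 13. The same embryos had chosen the genes. The values of the 13 genes therefore describe the size of the difference within each plate and set and do not bear on its direction.

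**Figure D4:**
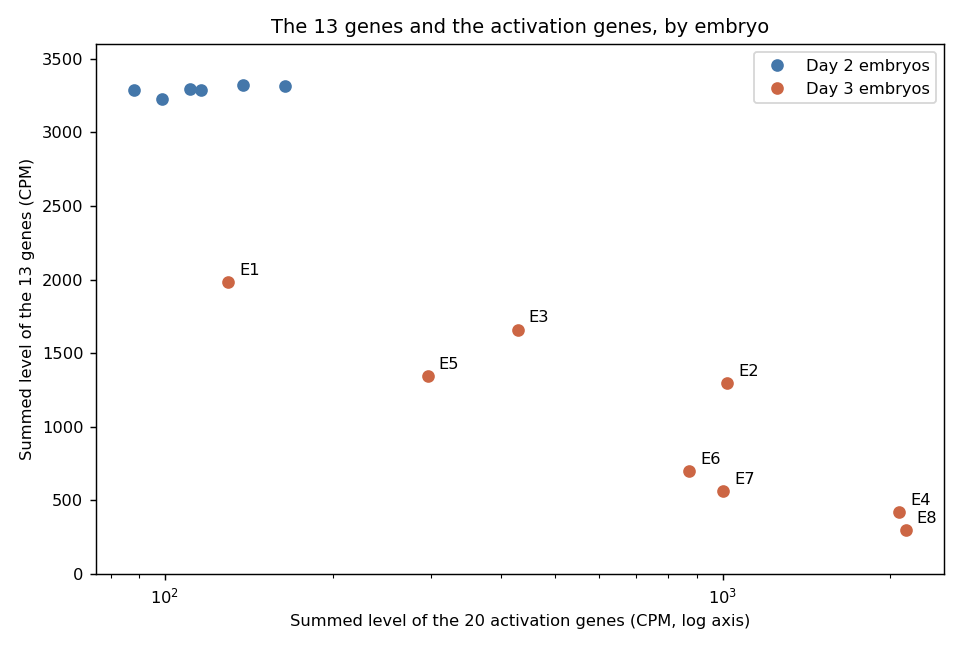
Summed level of the 13 genes (CPM, linear axis from 0) against the summed level of the 20 activation genes (CPM, log axis) in the 6 Day 2 embryos (blue) and the 8 Day 3 embryos (orange, E1 to E8). Day3-E1 has the activation level of a Day 2 embryo but 1984 CPM of the 13 genes, and Day3-E4 and Day3-E8 combine over 2000 CPM of activation genes with 421 and 299 CPM of the 13 genes.

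Whether the level of a gene followed genome activation among the 8 Day 3 embryos was fitted as the slope on log2 of the summed activation genes with edgeR's quasi-likelihood model, over 7126 genes with Benjamini-Hochberg adjustment under 0.05. For the 13 genes the slope is not independent of their choice. Hardly any gene was at 1/3 or less in Day3-E1 (1 of the 2199), whereas 815 were in Day3-E8 and 596 in Day3-E4, so that a low Day 3 mean rested on the embryos with the most activation and favoured a negative slope. Their slopes are therefore given as a description, with no p, and nothing is read from their counts. All 13 genes had a negative slope, as had 70.0% of the 2199 genes of the same Day 2 level. By the model 9 of the 13 passed as lower with more activation and 0 as higher, where 14.27% of all genes tested and 30.8% of the 2199 were lower and 21.0% of all genes were higher. The median slope was -0.54 log2 units per doubling of the activation genes for the 13 genes, -0.18 for the 2199 and -0.06 for all genes.

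The genes differed in their slopes. RIIAD1 had the steepest, -0.83 (SE 0.20), followed by UCHL1 with -0.76 (SE 0.27), ZAR1 with -0.68 (SE 0.14), TMEM242 with -0.67 (SE 0.16) and PRICKLE1 with -0.64 (SE 0.15). INPP1, F3, PRDX3 and PALB2 had slopes of -0.55, -0.54, -0.50 and -0.46. The slopes of HACD3 (-0.40, SE 0.20), LOC100848703 (-0.32, SE 0.18) and RARS2 (-0.19, SE 0.15) were smaller, and that of CETN3 was -0.05 (SE 0.16). Without Day3-E1 the slope of CETN3 was 0.11, and within the second barcode set it was 0.51. In Day3-E1, the Day 3 embryo with the least activation, CETN3 and RARS2 were at 40.9% and 40.1% of their Day 2 means. HACD3 and UCHL1 were at 46.5% and 48.8% there, and why the slopes differed was not tested.

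Correlations of log2(CPM + 1) with the activation genes over the 8 embryos are given in the same way, as a description of values that share library and depth. ZAR1 had r = -0.90 and rho = -0.88, and r = -0.92 without Day3-E1 and Day3-E5, the 2 embryos farthest from the median activation level. PRDX3 had r = -0.93 and rho = -0.88, and r = -0.92 without the same 2 embryos. F3 had r = -0.79 and rho = -0.95, and r = -0.77 without them. Over the 13 genes r was negative and ranged from -0.18 for CETN3 to -0.93.

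Of the 11 maternal effect genes that could be tested, 8 were called lower with more activation and 0 higher, where 14.27% of all genes tested were called lower, 21.0% higher, and 30.8% of the genes of the Day 2 level lower. Apart from ZAR1, which is no independent evidence here, the called genes included NLRP5 at -0.64 (SE 0.13, adjusted p = 0.000257 by edgeR's test) and NPM2 at -0.52 (SE 0.11, adjusted p = 0.000523). For recombination and repair genes, 2 of 43 were called lower, PALB2 and ERCC3, and 8 higher. Of 31 surface receptor, adhesion and protease genes, 8 were called lower, among them F3, the peptidase DPP4 and the integrin ITGB1, and 4 higher. The same shares of all genes stand beside these lists, and nothing particular to a list is read from its count.

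The lower level on Day 3 was seen across the blastomeres of an embryo. In cells with 10000 or more UMI, the summed level of the 13 genes ranged from 2527 to 3874 CPM over the 37 Day 2 cells. In Day3-E1 it ranged from 1476 to 2410 CPM over 13 cells with a median of 1896 CPM, below every Day 2 cell by value. The 95% Poisson intervals of the highest of these cells (2036 to 2833 CPM) and of the lowest Day 2 cell (1770 to 3498 CPM) overlapped. In Day3-E8 it ranged from 41.6 to 510 CPM over 14 cells with a median of 262 CPM. Cells of 1 embryo are not replicates, and the median Day3-E8 cell held 7 UMI of the 13 genes. Day3-E5 spanned 447 to 1985 CPM over 13 cells, and the 95% Poisson interval of its lowest cell was 179.9 to 922 CPM against 1436 to 2674 CPM for its highest. The intervals of the lowest and the highest cell, which were picked as extremes, did not overlap in Day3-E1, Day3-E2, Day3-E3, Day3-E5 and Day3-E8 and overlapped in Day3-E4, Day3-E6 and Day3-E7.

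**Figure D5:**
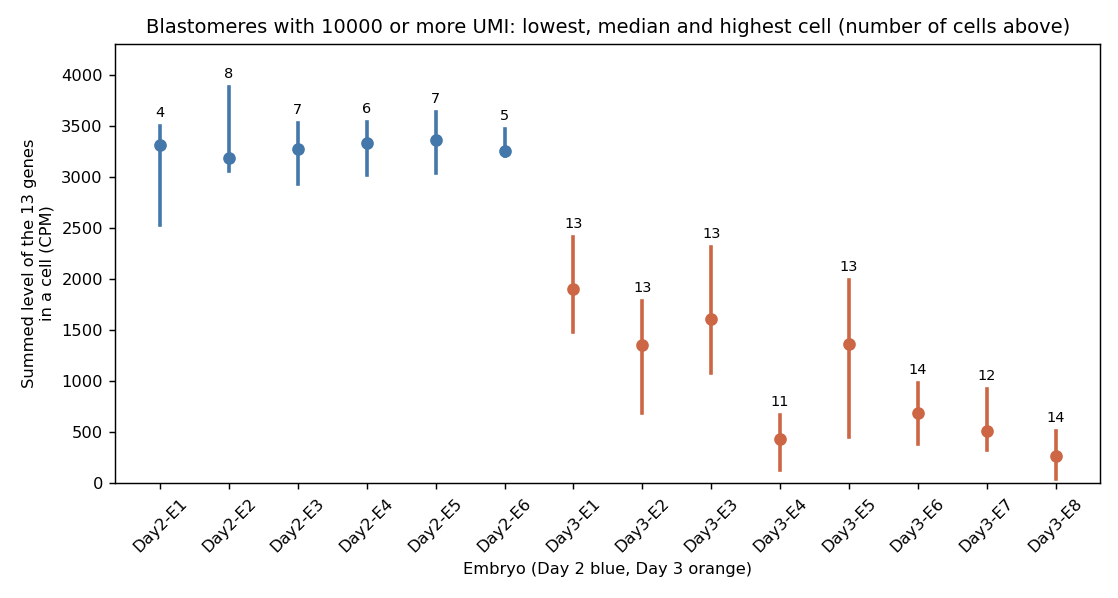
Summed level of the 13 genes (CPM, linear axis from 0) in single blastomeres with 10000 or more UMI, as the range from the lowest to the highest cell with the median as a point, for each Day 2 (blue) and Day 3 (orange) embryo, with the number of cells above each bar. Day 2 medians lie between 3183 and 3362 CPM, and the lowest Day 2 cell at 2527 CPM is above the highest Day 3 cell at 2410 CPM, although their counting intervals overlap.

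The share of cells with a UMI was lower on Day 3 for all 13 genes. This held also after every cell was thinned to 10000 UMI, which left 37 Day 2 and 103 Day 3 cells. The genes were chosen by a low Day 3 level in the same embryos, so a lower share is built in. Other genes were not counted in this way, and nothing is read from the count of 13. PRICKLE1 had a UMI in 100% of thinned Day 2 cells and 72.8% of thinned Day 3 cells, against 97.7% and 81.4% before thinning. ZAR1 had a UMI in 97.3% and 49.5% of thinned cells (93.0% and 67.8% before), and UCHL1 in 67.6% and 18.4% (83.7% and 35.6% before). Fewer cells with transcripts and fewer transcripts per cell cannot be told apart at this depth. No cell type that should lack these genes was sampled, so no background share can be set beside them.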

How the data were processed

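Single-cell libraries were prepared by SCRB-Seq. The authors mapped reads to the bovine genome (Bos tau7) and ERCC spike-ins with STAR 2.5.2b, per the submitters' processing notes and the study's methods, and deposited UMI counts per gene and cell from the Drop-seq pipeline. The annotation is not given in the sources used here. The normalised table was not used, because its column sums differ widely between cells. Of 170 cells, the 161 with 2000 or more UMI were summed per embryo and divided by the gene UMI total (CPM), leaving out spike-ins. The genes and gene lists were chosen with earlier results of these data known, so the day contrast carries no test, and the slopes of these genes are given without p-values.

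Named genes were those highest on Day 2, lowest on Day 3, lost in most or fewest embryos, next to a limit, on a list, or called in the association, which took all 13. The slope on log2 summed CPM of 20 activation genes was fitted and tested over all genes in the 8 Day 3 embryos with edgeR 4.0.16 (R 4.3.3), TMM scaling and 20 or more UMI per gene. The 20 genes themselves were not tested. DESeq2 1.42.0 and other settings served as alternatives. Intervals are exact Poisson at 95%, and a count of 0 allows 3 UMI. The slope test was checked on simulated data. RefSeq names come from another assembly, so no coordinates are given.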

Additional observations from a re-analysis of the deposited data

Results flagged for a closer look

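In 4 of 28 groups of embryos examined (each of the 13 genes and their sum, by day), 1 Day 2 embryo lay far from the others relative to the range of its group. Chance flags about 1 in 20 groups. LOC100848703 was high in Day2-E4 (127.9 CPM), HACD3 in Day2-E3 (139.8 CPM) and PRDX3 in Day2-E6 (143.5 CPM). The sum of the 13 genes was low in Day2-E2 (3224 CPM), although it differed little from the next Day 2 embryo at 3285 CPM. Without Day2-E4, Day2-E3 or Day2-E6 in turn, LOC100848703, HACD3 and PRDX3 were at 32.5%, 33.4% and 35.4% of the Day 2 mean, so that HACD3 and PRDX3 then lay outside the limit of 1/3.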

How the results depend on the processing

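The number of genes that met both limits depended on the setting, and the cause was not tested where a setting changed more than its own limit. It was 13 as described, 12 with cells of 5000 or more UMI and 13 with all cells. It was 5 with UMI pooled over all cells of a day, 3 with TMM factors, 93 per spike-in UMI and 48 with medians over embryos. Other limits gave 27 (50 CPM or more on Day 2), 5 (200 CPM or more), 263 (at most 1/2) and 0 (at most 1/4). The first barcode set alone gave 0 genes, plate 2 alone 470 and plate 3 alone 60. Leaving out 1 embryo gave 3 to 50 genes: 50, 21, 37 and 30 without Day3-E1, Day3-E2, Day3-E3 or Day3-E5, and 5, 8, 5 and 3 without Day3-E4, Day3-E6, Day3-E7 or Day3-E8. Without 1 Day 2 embryo it stayed within 12 to 16. Reading the genes in the embryo left out of their choice was added after the data were seen.

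In the association, whose counts for the 13 genes their choice favoured, 9 were called lower as described, 5 of 12 tested within the second barcode set, 4 by the exact permutation test (11.25% of all genes) and 7 to 10 when 1 Day 3 embryo was left out, with 7 without Day3-E4. Over all genes the count was 2513, and 1330 without the 2 embryos farthest from the median, 1641 by permutation and 1617 to 2695 when 1 embryo was left out, with 1617 without Day3-E8. Without TMM factors 1484 genes were called lower and 1251 higher, against 1017 and 1496 with them. Plate as a factor gave 7 of the 13 genes. The slope of CETN3, not called, changed sign to 0.039 with plate as a factor, 0.51 in the second barcode set and 0.11 without Day3-E1, the slopes without 1 embryo ranging from -0.13 to 0.11. INPP1, TMEM242 and ZAR1 were called under all 20 alternatives, and UCHL1 was lost under 5 of 19, PALB2 and PRDX3 under 4 of 20 each. All alternatives share the choice of the genes, so nothing is read from how often a gene was called. No paired analysis was possible because the only test holds Day 3 embryos alone and the day contrast comes from no test.

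Depth limits the low end: 3 UMI correspond to 5.00 to 10.17 CPM in a Day 3 embryo. Day, barcode set and plate overlap, since every Day 2 embryo used the first barcode set, and their parts cannot be told apart beyond the values within plates and sets. Among Day 3 embryos plate also coincided with collection time, so plate and time cannot be told apart there. The labels name no library pool. CPM are shares, so fewer transcripts of a gene and more of others cannot be told apart.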
